A study of Mus musculus with 21 samples.

Results

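The genes that open and close the pyruvate dehydrogenase step were followed across 21 mouse heart libraries. The set held 10 genes: the kinases Pdk1, Pdk2, Pdk3 and Pdk4, the phosphatases Pdp1 and Pdp2, the E1 subunits Pdha1 and Pdhb, and the mitochondrial pyruvate carrier subunits Mpc1 and Mpc2. They were taken by gene symbol. All 10 were among the 19096 genes of the deposited gene matrix, and all 10 were among the 15216 genes that passed the low-count filter for testing. The hearts came from male C57BL/6NJ mice in a study of heart failure with preserved ejection fraction that crossed diet with renin delivery. Diet came first, at 8 to 10 weeks of age: mice were randomized to chow or to a high-fat diet (HFD, 60% of kcal) over 10 weeks. A second randomization gave them either an adeno-associated virus (AAV) carrying renin or its control. Hearts were freeze-clamped 6 weeks after the injection, which was given behind the eye. The groups were chow-novirus (chow, control, 4 hearts), chow-Renin (chow, AAV-Renin, 6 hearts), HFD-novirus (HFD, control, 6 hearts) and HFD-Renin (HFD, AAV-Renin, 5 hearts). The sample titles call the control novirus, while the design text names a null vector, and the sources used here do not settle which the control mice received. Renin and the virus that carried it therefore cannot be told apart with certainty in the comparisons below. The promoter and serotype of the vector, and whether whole hearts or ventricles were taken, are not given in the sources used here.

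Pyruvate dehydrogenase turns pyruvate from glucose and lactate into acetyl-CoA inside mitochondria, and so sets how far the heart burns carbohydrate in place of fatty acids. The carrier formed by Mpc1 and Mpc2 brings pyruvate across the inner membrane, and the E1 enzyme, built from Pdha1 and Pdhb, carries out the first, committed reaction. The kinases phosphorylate Pdha1 and close the gate, the phosphatases remove that phosphate and open it, and Pdk4 is known to be raised by fasting, fatty acids and peroxisome proliferator-activated receptors (PPARs) in heart. Transcript levels do not show the phosphorylation of the enzyme.

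Libraries held 18743226 to 29265430 estimated reads. The highest chow-novirus library, at 21414093 reads, was below the lowest of the other 17, at 22805569 reads, so depth and membership of that group cannot be told apart. All 9 cardiomyocyte markers were detected in every group, with a summed level of 48650 to 71089 CPM (read counts scaled to library size). Atrial markers were high in 5 libraries (atrial score over 4: chow-novirus replicate 3, chow-Renin replicates 1 and 3, HFD-novirus replicate 3 and HFD-Renin replicate 3). The 7 central nervous system markers summed to 221 to 371 CPM in chow-Renin and to 56.9 to 105 CPM in the other groups. HFD-novirus replicate 6 stood apart in Nnt, the mitochondrial transhydrogenase, with 181 CPM against 539 or more in the other 20 libraries. With both annotated Nnt genes summed it had 576 CPM, and the next lowest library had 635 CPM.

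The data show lower transcript levels of 1 kinase, 1 phosphatase and 1 carrier subunit in hearts that had both HFD and renin. Against chow-novirus, HFD-Renin hearts had less Pdk2, a kinase of well-fed oxidative tissue, less Pdp2, the insulin-responsive phosphatase, and less Mpc1. The Mpc1 result was the weakest of these. It was lost in 12 of 24 alternative fits, beside 2 for Pdk2 and 3 for Pdp2, and in 7 of the 9 that left out 1 heart. Pdk4 was not called in any of the 8 comparisons. With either hit on its own the calls were fewer: Pdhb alone passed in chow-Renin against chow-novirus, and no member passed in HFD-novirus against chow-novirus. The gap between HFD-Renin and chow-Renin rests on the cutoff. Against chow-novirus, 7 of 10 members in HFD-Renin and 6 of 10 in chow-Renin had an unadjusted edgeR p under 0.05 (23.9% and 25.1% of tested genes). In HFD-Renin hearts Pdk2 and Mpc2 were lower than in HFD-novirus hearts. Compared with chow-Renin hearts, Pdk1 was higher and Pdk2 lower in HFD-Renin.

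Calls are at a Benjamini-Hochberg adjusted p under 0.05 over the 15216 tested genes in edgeR's quasi-likelihood test. In HFD-Renin against chow-novirus, 3 of 10 members were called, all lower, where 8.29% of all tested genes were called and 4.25% were called lower. In chow-Renin against chow-novirus, 1 of 10 was called, where 13.5% of tested genes were. In HFD-novirus against chow-novirus, edgeR called 0 of 10 members, where 0.0657% of tested genes were called. Only Pdp2 had an unadjusted p under 0.05 there, and DESeq2 and limma also called 0. In HFD-Renin against HFD-novirus, 2 of 10 were called (11.1% of tested genes), and in HFD-Renin against chow-Renin 2 of 10 (22.6% of tested genes). These shares of all genes move with the libraries and the filter: without chow-novirus replicate 4, 565 genes were called in HFD-Renin against chow-novirus, beside 1262 with it, and with a mean of at least 20 CPM 191 of 5560 genes were called in chow-Renin against chow-novirus, beside 2048 of 15216. With so few members, their share was not compared with the background by a test. The median log2 fold change of the 10 members in HFD-Renin against chow-novirus was -0.19, beside 0.01 over all tested genes. In chow-Renin against chow-novirus the medians were -0.16 and -0.03. The interaction, which is the renin effect on HFD minus the renin effect on chow, called 0 of 10 members in edgeR, where 10.4% of tested genes were called. Pdk1 and Pdhb had an unadjusted p under 0.05 in the interaction, and DESeq2 and limma called 0. A combined effect of diet and renin that differs from the sum of the single ones was therefore not shown for any member.

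**Figure D1:**
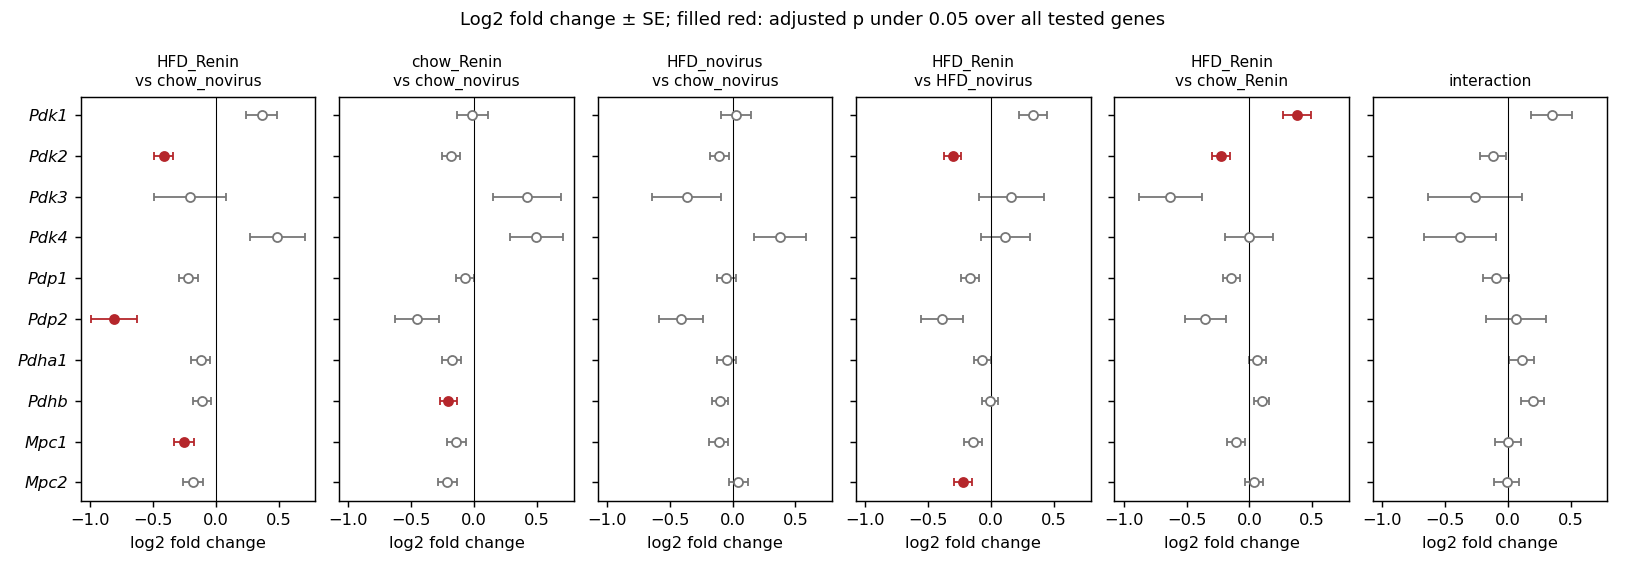
Log2 fold change (x axis) of each of the 10 genes (y axis) in 5 pairwise comparisons and the interaction, with points for the edgeR estimate and bars for its standard error. Filled red points passed an adjusted p under 0.05: Pdk2, Pdp2 and Mpc1 lie left of 0 in HFD-Renin against chow-novirus, and no point is filled in HFD-novirus against chow-novirus or in the interaction.

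Levels between genes were compared as TPM, the transcript abundance unit that corrects for length. TPM were not scaled between libraries. The median ratio of the deposited gene signal to TPM was 1.25 to 1.33 in chow-novirus and 1.14 to 1.26 in chow-Renin. It was 1.30 to 1.59 in HFD-novirus and 1.19 to 1.35 in HFD-Renin. A difference between groups in TPM can therefore hold a shift shared by all genes, and no share of all genes was taken in TPM. In chow-novirus hearts the order of mean TPM was Pdhb 542, Mpc1 330, Pdha1 306, Mpc2 201.8, Pdk2 164, Pdk4 135, Pdk1 22.1, Pdp1 11.8, Pdp2 7.56 and Pdk3 0.799. Only Pdk2 and Pdk4 overlapped among neighbours in that order. In the other 3 groups mean Pdk4 TPM was above mean Pdk2 TPM, at 206 and 155 in chow-Renin, 163 and 140.5 in HFD-novirus, and 191 and 124 in HFD-Renin. The libraries of both genes overlapped in chow-Renin and HFD-novirus and not in HFD-Renin. In HFD-novirus Mpc1 overlapped Pdha1, Pdha1 overlapped Mpc2, and Mpc2 overlapped Pdk4. In chow-Renin and HFD-Renin, Mpc1 overlapped Pdha1 and Pdk4 overlapped Mpc2.

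The kinase transcripts were nearly all Pdk2 and Pdk4. Pdk4 made up 40.9% ± 8.46 (SD, n = 4) of the summed TPM of the 4 kinases in chow-novirus, 52.8% ± 4.65 (n = 6) in chow-Renin, 49.5% ± 6.34 (n = 6) in HFD-novirus and 55.2% ± 4.89 (n = 5) in HFD-Renin. The chow-novirus hearts lay between 30.6% and 50.5% and the HFD-Renin hearts between 51.4% and 61.5%, so these groups did not overlap in TPM, while the single-hit groups overlapped both. In shares of estimated counts, which do not correct for length, they did overlap, at 38.2% to 59.2% in chow-novirus and 57.4% to 67.3% in HFD-Renin. Pdk2 made up 51.8% ± 6.88 (n = 4) in chow-novirus and 36.2% ± 3.94 (n = 5) in HFD-Renin, and Pdk1 made up 7.06% ± 1.62 and 8.48% ± 2.02. A share shows unequal change between the kinases and not the change of either, and it was given no test. The ratio of summed kinase to summed phosphatase TPM was 17.0 ± 4.24 (n = 4) in chow-novirus, 21.3 ± 2.06 (n = 6) in chow-Renin, 21.3 ± 1.53 (n = 6) in HFD-novirus and 23.8 ± 1.496 (n = 5) in HFD-Renin. In chow-novirus it ran from 12.6 to 21.5 and in HFD-Renin from 22.4 to 26.0. All HFD-Renin hearts were above all chow-novirus hearts on this ratio.

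**Figure D2:**
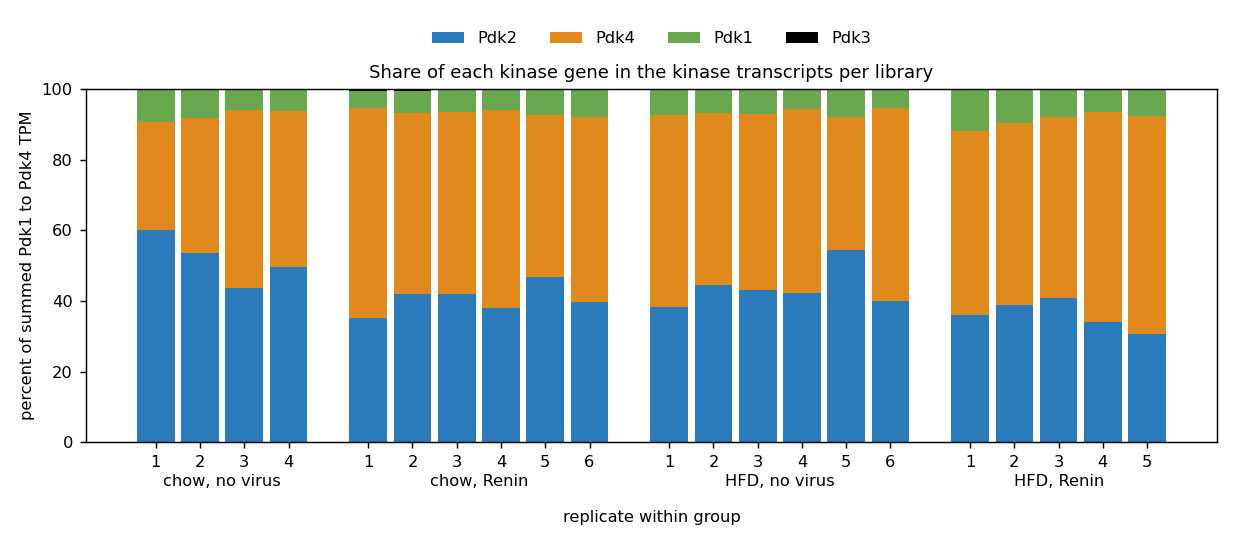
Percent of the summed Pdk1 to Pdk4 TPM (y axis) taken by each kinase gene in each of the 21 libraries (x axis, grouped). Pdk2 and Pdk4 fill nearly every bar, with Pdk4 between 30.6% and 50.5% in chow-novirus and between 51.4% and 61.5% in HFD-Renin.

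Pdk2 and Pdp2, the kinase and the phosphatase that were lower with both hits, are shown with their upstream sequence beside Pdk4, the abundant kinase that was not called. The stretches run from 250 to 51 bases before the RefSeq start site on GRCm38.p6, read 5′ to 3′ on the gene's strand: Pdk2 at chr11:95041422-95041621 (minus strand), Pdp2 at chr8:104591222-104591421 (plus strand) and Pdk4 at chr6:5496329-5496528 (minus strand). Capitals mark CACGTG, the E-box, which reads the same on both strands. Mpc1, the carrier subunit also called lower with both hits, is not printed and holds no CACGTG in its listed promoters. A part of the E-box in these calls was not tested.
Pdk2: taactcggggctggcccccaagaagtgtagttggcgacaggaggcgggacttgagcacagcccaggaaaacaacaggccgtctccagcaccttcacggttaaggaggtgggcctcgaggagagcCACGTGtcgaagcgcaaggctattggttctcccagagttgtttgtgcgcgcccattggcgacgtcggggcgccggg
Pdp2: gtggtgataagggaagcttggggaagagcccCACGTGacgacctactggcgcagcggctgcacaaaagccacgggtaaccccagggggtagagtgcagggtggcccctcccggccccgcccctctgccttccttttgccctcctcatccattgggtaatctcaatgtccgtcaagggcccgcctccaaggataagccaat
Pdk4: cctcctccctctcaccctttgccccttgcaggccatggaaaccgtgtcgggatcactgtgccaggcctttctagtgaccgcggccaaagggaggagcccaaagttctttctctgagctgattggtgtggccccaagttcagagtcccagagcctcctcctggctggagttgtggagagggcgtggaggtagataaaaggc

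Counted from the start site, the first base of the E-box is at -126 in Pdk2 and at -219 in Pdp2. Of the 9 members with a promoter in the RefSeq table (Pdp1 was not matched), these 2 held CACGTG in the window from 250 bases before to 50 after the first listed start site, as did 7.24% of 27025 promoters of that length. ACGTG on either strand, which lies within the E-box, was in the windows of Pdk2, Pdk3, Pdp2 and Pdhb and in 19.7% of promoters. CCAAT on either strand was in 7 of the 9 windows and in 37.9% of promoters. AGGTCA, a nuclear receptor half-site, was in none of the 9 windows on either strand and in 16.0% of promoters. A match is a string of letters in a window and no evidence of binding.

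Pdk2, at chr11:95026258-95041354 on GRCm38 (GENCODE M21 gene bounds, as for the genes below), was the member with the most calls. Its CPM were 387, 389, 385 and 435 in the chow-novirus hearts and 257, 331, 327, 293 and 291 in the HFD-Renin hearts. Every HFD-Renin heart was below every chow-novirus heart, as was true of Pdk2, Pdp2 and Mpc1 among the 10 members and of 5.07% of all tested genes. Pdk2 fell in HFD-Renin against chow-novirus: the log2 fold change was -0.41, with SE 0.08 and adjusted p 0.00232. The call was kept in all 9 fits that left out 1 of these hearts. In whole tissue, fewer cells of a type and less RNA per cell cannot be told apart, for this and every later result.

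The groups with one hit lay between. Pdk2 ran from 334 to 374 CPM (median 349) in chow-Renin and from 324 to 400 CPM (median 386) in HFD-novirus. All 6 chow-Renin hearts were below all 4 chow-novirus hearts, which 4.75% of tested genes also showed, but the difference did not pass the test (adjusted p 0.111). HFD-novirus overlapped chow-novirus. In TPM the single-hit groups changed places: HFD-novirus, at 131 to 151 TPM, was wholly below chow-novirus, at 155 to 177 TPM, while chow-Renin, at 146 to 161 TPM, overlapped it. TPM were not scaled between libraries, so this change of places can hold a shift shared by all genes. HFD-Renin was below chow-novirus on both scales. Pdk2 was lower in HFD-Renin than in HFD-novirus by a log2 fold change of -0.31 (SE 0.07, adjusted p 0.00797) and lower than in chow-Renin by -0.23 (SE 0.07, adjusted p 0.0209). HFD-Renin did not overlap chow-Renin, where 9.78% of tested genes were wholly lower, and overlapped HFD-novirus. The second of these calls was lost without HFD-Renin replicate 1 or replicate 5 (adjusted p 0.0519 to 0.0594).

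Averaged over both diets, Pdk2 was lower in the Renin groups than in the novirus groups (log2 fold change -0.25, SE 0.05, adjusted p 0.00140), a comparison in which 4 of 10 members and 20.6% of tested genes were called. Averaged over both vector groups, the diet effect on Pdk2 was -0.17 (SE 0.05, adjusted p 0.0334), in a comparison with 2 of 10 members and 12.3% of tested genes called. The renin average stood in all 21 fits without 1 library, and was lost with a score of clock genes, central nervous markers or cardiomyocyte markers as a covariate (adjusted p 0.334, 0.140 and 0.473). The diet average was lost with each of these covariates and in 5 of 21, those without chow-novirus replicate 4, chow-Renin replicates 2 or 4, or HFD-Renin replicates 1 or 5 (adjusted p 0.0519 to 0.0912). Nearly all of the Pdk2 signal, 96.7% of its TPM, came from the coding transcript Pdk2-201.

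**Figure D3:**
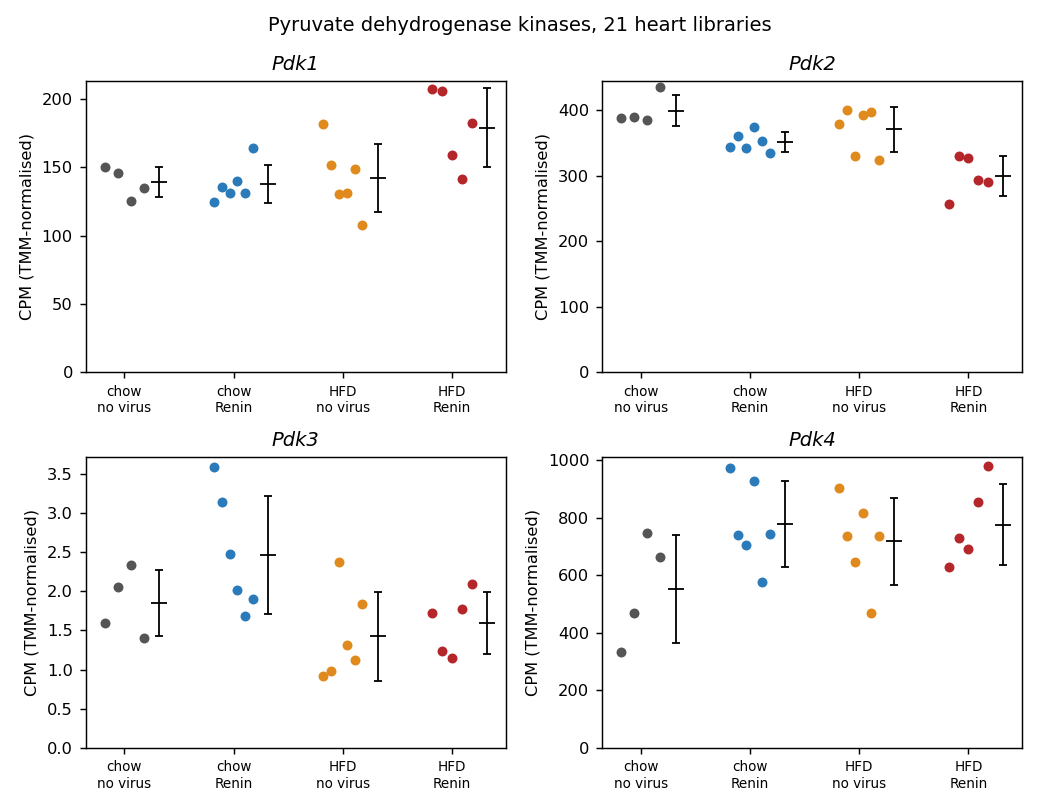
CPM (y axis, from 0) of Pdk1, Pdk2, Pdk3 and Pdk4 in each heart (points) by group (x axis), with the group mean and SD in black. All 5 HFD-Renin points for Pdk2 (257 to 331 CPM) lie below the 4 chow-novirus points (385 to 435 CPM), while Pdk4 overlaps between all groups.

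Pdk4 (chr6:5483351-5496309), the kinase known to answer to fatty acid supply, had the widest spread among the abundant members. Its CPM were 333, 467, 745 and 662 in chow-novirus and 627, 727, 689, 853 and 979 in HFD-Renin. It ran from 576 to 973 CPM (median 741) in chow-Renin and from 467 to 902 CPM (median 737) in HFD-novirus. The chow-novirus hearts were split, with 2 below every heart of the Renin groups and 2 within their range, and all groups overlapped. The log2 fold change against chow-novirus was 0.49 (SE 0.22, adjusted p 0.175) in HFD-Renin, 0.49 (SE 0.21, adjusted p 0.140) in chow-Renin and 0.38 (SE 0.21, adjusted p 0.534) in HFD-novirus. These comparisons share the chow-novirus hearts. Without chow-novirus replicate 3, Pdk4 in chow-Renin was 0.67 higher and passed (adjusted p 0.0450); over all 25 alternatives of that comparison its adjusted p ran from 0.0450 to 0.967. Pdk4 did not pass in the interaction (log2 difference -0.38, SE 0.29, adjusted p 0.473) or in the renin average (0.30, SE 0.14, adjusted p 0.143). Pdk4-201 carried 99.4% of its TPM.

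Pdk1 (chr2:71873224-71903858), a kinase known to be induced in hypoxia, was higher with both hits in some comparisons. It measured 150, 146, 125 and 135 CPM in chow-novirus and 208, 206, 159, 141.1 and 182 CPM in HFD-Renin. It ran from 124 to 164 CPM (median 133) in chow-Renin and from 108 to 181 CPM (median 140) in HFD-novirus. HFD-Renin hearts were the highest group on average, and 4 of 5 were above every chow-novirus heart, but all groups overlapped. Pdk1 rose in HFD-Renin against chow-Renin (log2 fold change 0.38, SE 0.11, adjusted p 0.0167). The call was lost in 5 of 11 fits without 1 library, those without chow-Renin replicates 1, 3 or 5 or HFD-Renin replicates 1 or 2 (adjusted p 0.0508 to 0.0938), and without the 5 libraries with high atrial markers (0.34, adjusted p 0.112). Against chow-novirus and HFD-novirus its log2 fold changes were 0.37 (SE 0.12, adjusted p 0.0720) and 0.34 (SE 0.11, adjusted p 0.0543). Both of these Pdk1 differences passed without HFD-Renin replicate 4, at 0.44 (adjusted p 0.0210) and 0.41 (adjusted p 0.0132), in DESeq2 (adjusted p 0.0484 and 0.0360), with a mean of at least 20 CPM (0.0361 and 0.0248) and with the atrial score as a covariate (0.0396 and 0.0217). The difference from HFD-novirus also passed without HFD-novirus replicate 1 or HFD-Renin replicate 3 (adjusted p 0.0111 to 0.0393 over the 3 such fits).

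Pdk3 (chrX:93764607-93832201) was close to the detection floor, at 0.915 to 3.59 CPM over the 21 hearts. With all libraries and no covariate edgeR did not call it in any comparison, and its largest pairwise log2 fold change was -0.63 (SE 0.25, adjusted p 0.0754) in HFD-Renin against chow-Renin. That Pdk3 difference passed without chow-Renin replicate 5 (-0.74, adjusted p 0.0436) and with the cardiomyocyte score as a covariate (-0.73, adjusted p 0.0231). In the diet average Pdk3 passed without HFD-novirus replicate 3 (-0.61, adjusted p 0.0232) and with the cardiomyocyte score (-0.72, adjusted p 0.0189). Its coefficient of variation over all hearts was 37.0% in CPM, against 12.2% for Pdk2 and 23.2% for Pdk4.

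Pdp2 (chr8:104591451-104599026) had the largest called difference among the members. Its CPM were 63.5, 62.6, 40.7 and 44.8 in chow-novirus and 22.8, 21.9, 35.5, 39.9 and 31.0 in HFD-Renin. The groups did not overlap, but HFD-Renin replicate 4, at 39.9 CPM, came close to chow-novirus replicate 3, at 40.7 CPM. Pdp2 fell with a log2 fold change of -0.81 (SE 0.18 and adjusted p 0.0104), and the call was kept in all 9 fits without 1 of these hearts. In a fit of only the 2 groups the log2 fold change was -0.81 with an adjusted p of 0.0646; over all 24 alternatives the adjusted p ran from 0.000303 to 0.742.

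The single-hit groups again lay between and overlapped both. Pdp2 ran from 30.8 to 51.8 CPM (median 37.3) in chow-Renin and from 32.4 to 45.2 CPM (median 40.3) in HFD-novirus. Against chow-novirus, the log2 fold changes of Pdp2 were -0.46 (SE 0.17, adjusted p 0.0943) in chow-Renin and -0.41 (SE 0.18, adjusted p 0.395) in HFD-novirus. Neither passed. Without chow-novirus replicate 3 the chow-Renin value was -0.56 and passed (adjusted p 0.0427), and it also passed without chow-Renin replicate 4 (adjusted p 0.0333). The renin average for Pdp2 was -0.42 (SE 0.12, adjusted p 0.0165) and stood in all 21 fits without 1 library, but not with the clock, central nervous or cardiomyocyte covariate (adjusted p 0.785, 0.259 and 0.660). The diet average for Pdp2 was -0.38 (SE 0.12, adjusted p 0.0436) and was lost in 13 of those 21 fits (adjusted p 0.0528 to 0.0957), those without chow-novirus replicates 1 or 2, chow-Renin replicates 3, 4 or 6, HFD-novirus replicates 2 to 6, or HFD-Renin replicates 1, 2 or 5.

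Pdp1 (chr4:11958184-11966452), the calcium-stimulated phosphatase that is abundant in muscle, was not called in any comparison at full depth with the low-count filter used here. It measured 36.1 to 40.1 CPM in chow-novirus (n = 4) and 27.6 to 36.4 CPM in HFD-Renin (n = 5), and 4 of the 5 HFD-Renin hearts were below all chow-novirus hearts. In TPM, which were not scaled between libraries, all 5 were (9.61 to 10.7 against 11.4 to 12.0). The share of all genes so placed in TPM was not taken. The log2 fold change was -0.22 (SE 0.08, adjusted p 0.0843). After thinning to equal depth Pdp1 passed in HFD-Renin against chow-novirus (-0.29, adjusted p 0.0281) and against chow-Renin (-0.21, adjusted p 0.0394), the latter also with a minimum mean of 20 CPM (adjusted p 0.0393). Of the summed phosphatase TPM, Pdp2 made up 38.8% ± 4.83 (SD, n = 4) in chow-novirus, 32.9% ± 5.31 (n = 6) in chow-Renin, 34.5% ± 3.47 (n = 6) in HFD-novirus and 29.8% ± 5.82 (n = 5) in HFD-Renin. Ranges in chow-novirus (34.5% to 43.0%) and HFD-Renin (21.9% to 36.0%) overlapped. Pdp1 TPM was spread over 6 coding transcripts, the largest at 29.5% and the smallest at 4.07%, while Pdp2 has a single transcript in the files.

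The E1 subunits moved little. Pdha1 (chrX:160122209-160138413), the subunit the kinases phosphorylate, measured 930 to 1049 CPM in chow-novirus (n = 4), 850 to 963 CPM in chow-Renin (n = 6), 767 to 1045 CPM in HFD-novirus (n = 6) and 873 to 975 CPM in HFD-Renin (n = 5). In TPM, HFD-Renin (269 to 294) lay below chow-novirus (296 to 316), groups that overlap in CPM. How many of all genes did so in TPM was not counted, and TPM were not scaled between libraries. Pdha1 was not called in any comparison. The lowest value, 767 CPM, belonged to HFD-novirus replicate 6, and the other 5 hearts of that group were at 942 CPM or above. Without that library the renin average for Pdha1 was -0.15 and passed (adjusted p 0.00443), whereas with it the adjusted p was 0.0800; over the 35 alternatives it ran from 0.00443 to 0.961. Pdha1-201 carried 99.5% of Pdha1 TPM.

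Pdhb (chr14:8165996-8173025), the other E1 subunit, was 671, 668, 607 and 671 CPM in chow-novirus and 519 to 614 CPM (median 571) in chow-Renin. Chow-novirus replicate 3 was lower than the other 3 control hearts, and 5 of 6 chow-Renin hearts were below all 4. Pdhb fell in CPM in chow-Renin (log2 fold change -0.20, SE 0.07, adjusted p 0.0412). Mean Pdhb TPM was 537 in chow-Renin and 542 in chow-novirus, so the fall was not seen on that scale, and the lowest group in TPM was HFD-novirus (368 to 505, against 518 to 557 in chow-novirus). Because TPM were not scaled between libraries, both readings can hold a shift shared by all genes. This call was lost in 8 of 10 fits without 1 library (adjusted p 0.0550 to 0.156), those without chow-novirus replicates 1, 2 or 4 or chow-Renin replicates 1, 3, 4, 5 or 6, and under 11 of the 15 other alternatives. In HFD-Renin Pdhb measured 571 to 640 CPM and in HFD-novirus 552 to 664 CPM. The interaction for Pdhb was 0.20 (SE 0.09, adjusted p 0.197). The ratio of Pdha1 to Pdhb TPM was 0.565 ± 0.0121 (SD, n = 4) in chow-novirus and 0.549 ± 0.0544 (n = 5) in HFD-Renin.

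Pdhb was the member whose TPM was most divided between a coding and a non-coding transcript. Pdhb-201, the coding transcript of 1513 bases, took 71.6% of Pdhb TPM and Pdhb-202, a processed transcript of 459 bases, took 26.8%. The share of Pdhb-202 was 25.3% ± 1.11 (SD, n = 4) in chow-novirus, 30.3% ± 2.92 (n = 6) in chow-Renin, 21.3% ± 9.16 (n = 6) in HFD-novirus and 28.0% ± 4.65 (n = 5) in HFD-Renin. HFD-novirus replicate 6 had 3.88%, and the other 5 hearts of its group had 20.5% to 28.1%. Pdhb-202 is short, so few reads set its TPM share, and Salmon divides shared reads between the transcripts by estimate. In estimated reads it made up 4.28% to 6.54% of Pdhb in the group means.

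Of the carrier subunits, Mpc2 was lower in the renin average, and Mpc1 was lower in HFD-Renin than in chow-novirus with less support. Mpc1 (chr17:8282904-8297661) measured 277, 266, 245 and 260 CPM in chow-novirus and 210, 240, 216, 218 and 218 CPM in HFD-Renin. The groups did not overlap, with HFD-Renin replicate 2 (240 CPM) just under chow-novirus replicate 3 (245 CPM). Mpc1 fell (log2 fold change -0.25, SE 0.08, adjusted p 0.0430). The call was lost in 7 of 9 fits without 1 of these hearts (adjusted p 0.0551 to 0.125), those without chow-novirus replicates 1, 2 or 4 or HFD-Renin replicates 1, 3, 4 or 5. Mpc1 ran from 208 to 259 CPM (median 238.1) in chow-Renin and from 218 to 284 CPM (median 241) in HFD-novirus, overlapping both other groups. Renin within either diet did not pass for Mpc1 (adjusted p 0.237 on chow and 0.199 on HFD).

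Mpc2 (chr1:165460637-165481214) was 191, 197, 165 and 183 CPM in chow-novirus and 153, 167, 163, 174 and 157 CPM in HFD-Renin, and these groups overlapped in CPM and not in TPM (188 to 216 against 174 to 184). The difference was not called in edgeR (adjusted p 0.161). No share of all genes was taken for the unscaled TPM. It ran from 151 to 171 CPM (median 157) in chow-Renin and from 164 to 216 CPM (median 189) in HFD-novirus. Both Renin groups were low and HFD-novirus held the highest hearts. Against chow-novirus, Mpc2 in chow-Renin had a log2 difference of -0.21 and did not pass (SE 0.07, adjusted p 0.0602), except without chow-novirus replicate 3 (adjusted p 0.0261) among the fits without 1 library. Mpc2 was lower in HFD-Renin than in HFD-novirus (log2 fold change -0.22, SE 0.07, adjusted p 0.0413). The call was lost in 7 of 11 fits without 1 library, those without HFD-novirus replicates 2, 5 or 6 or HFD-Renin replicates 1, 2, 3 or 5 (adjusted p 0.0565 to 0.109). Over both diets the renin average for Mpc2 was -0.22 (SE 0.05, adjusted p 0.00366) and stood in all 21 fits without 1 library, but not with the clock, central nervous or cardiomyocyte covariate (adjusted p 0.243, 0.669 and 0.655). The renin average for Mpc1 was -0.14 (SE 0.05, adjusted p 0.0494) and was lost in 14 of the 21 (adjusted p 0.0621 to 0.121), those without chow-novirus replicates 1, 2 or 4, chow-Renin replicates 1, 3, 5 or 6, HFD-novirus replicates 2, 4 or 5, or HFD-Renin replicates 1, 3, 4 or 5. It was lost in 26 of all 35 alternatives, other scalings and filters among them. The ratio of Mpc1 to Mpc2 TPM was 1.64 ± 0.0523 (SD, n = 4) in chow-novirus, 1.72 ± 0.148 (n = 6) in chow-Renin, 1.47 ± 0.205 (n = 6) in HFD-novirus and 1.55 ± 0.0697 (n = 5) in HFD-Renin.

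**Figure D4:**
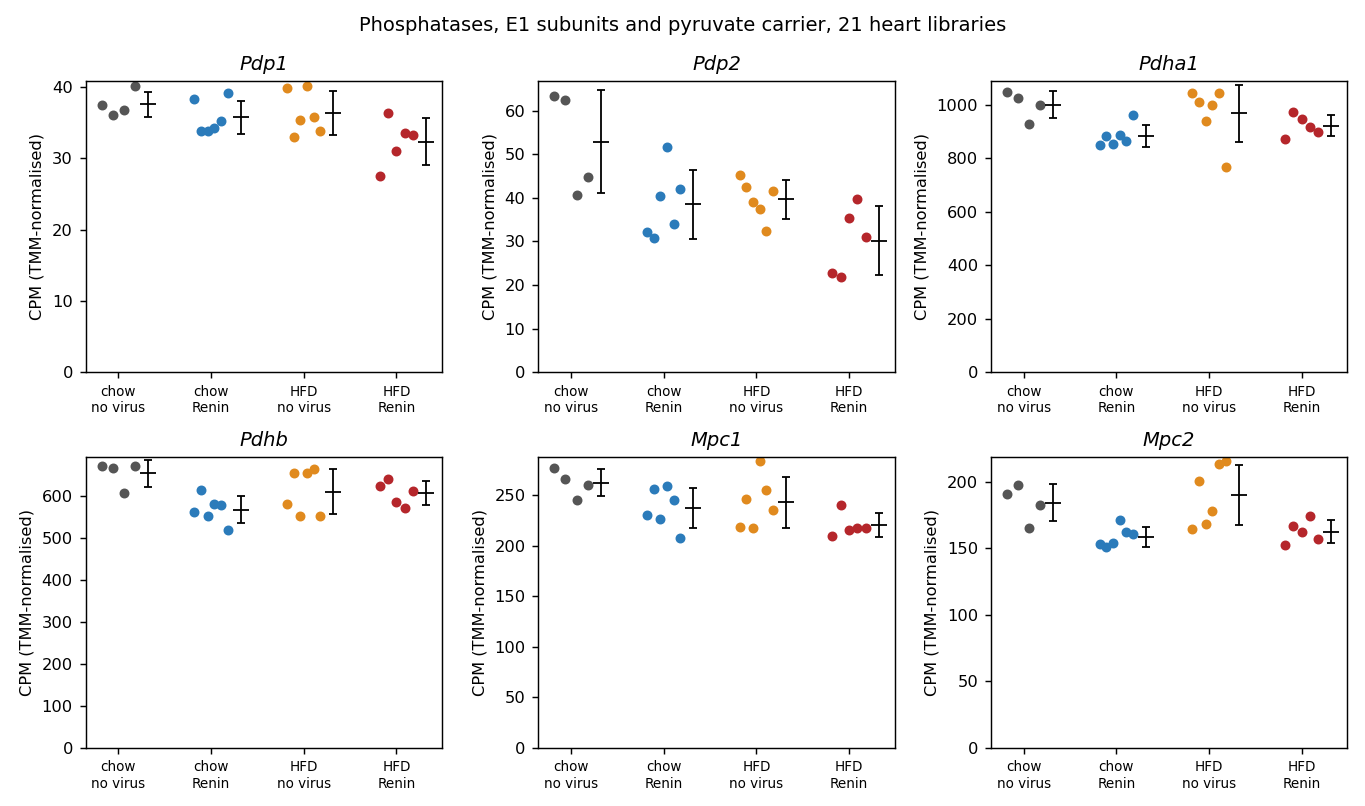
CPM (y axis, from 0) of the phosphatases, E1 subunits and carrier subunits in each heart (points) by group (x axis), with the group mean and SD in black. Pdp2 falls from 40.7 to 63.5 CPM in chow-novirus to 21.9 to 39.9 CPM in HFD-Renin, and the low Pdha1 point of HFD-novirus is replicate 6 at 767 CPM.

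Markers of clock phase, of cardiomyocytes and of other cells moved with these calls. A clock score was taken as the mean log2 CPM of 10 genes that include Dbp, Per1 to Per3 and Nr1d1 minus that of 5 genes that include Arntl and Clock. It was 3.39 to 3.70 in chow-novirus, 2.87 to 3.22 in chow-Renin, 3.14 to 3.48 in HFD-novirus and 2.22 to 3.23 in HFD-Renin. The HFD-Renin and chow-novirus ranges did not overlap, and 4 of the 10 genes of the first set were called lower and 1 of the 5 of the second set higher. The heart with the lowest score, 2.22, also had the lowest Pdk2, at 257 CPM. With the score as a covariate, 0 members were called in any comparison by edgeR. In HFD-Renin against chow-novirus this held for the whole table: of 15216 genes 0 passed, with 1210 at an unadjusted p under 0.05, so the loss is not particular to the members. In HFD-Renin against HFD-novirus 15 genes were called with it, and in HFD-Renin against chow-Renin 2697. The log2 fold changes in HFD-Renin against chow-novirus were then -0.28 for Pdk2 (adjusted p 0.572), -0.39 for Pdp2 (adjusted p 0.742) and -0.20 for Mpc1 (adjusted p 0.703). Over the 24 alternatives of that comparison, the adjusted p of Pdk2 ran from 3.04e-05 to 0.572.

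The mean log2 CPM of the 9 cardiomyocyte markers was 11.94 to 12.20 in chow-novirus and 11.81 to 11.91 in HFD-Renin, again without overlap. Of the 9, 6 were called lower in that comparison: Tnnt2, Myh6, Tnni3, Myl2, Myl3 and Pln. Their summed level was 58672 to 71089 CPM in chow-novirus and 48650 to 55479 CPM in HFD-Renin, and none was at 0. With this score as a covariate, which was chosen after seeing the data, edgeR again called 0 of 15216 genes in that comparison, with 1972 at an unadjusted p under 0.05. Pdk2 was -0.24 (adjusted p 0.377), Pdp2 -0.48 (adjusted p 0.485) and Mpc1 -0.03 (adjusted p 0.933) in HFD-Renin against chow-novirus. In other comparisons the 9 cardiomyocyte markers went both ways. In HFD-Renin 5 were called lower and 1 higher against HFD-novirus, and 4 lower and 2 higher against chow-Renin (11.1% and 22.6% of tested genes). The interaction called 2 higher and 0 lower, and the renin average 0 higher and 5 lower (10.4% and 20.6% of tested genes). The mean log2 CPM of the skeletal muscle markers was 2.47 to 2.89 in HFD-Renin, above HFD-novirus (1.58 to 2.18) and overlapping the chow groups (1.61 to 2.57), with Acta1 called higher in HFD-Renin against each other group. Ckm, another of the 3 tested skeletal muscle markers, was called lower in HFD-Renin against chow-novirus and in the renin average. The list holds 5 markers, and those tested did not move together. Of the 4 endothelial markers, Kdr and Tek were called higher in HFD-Renin than in chow-Renin. The parts of clock phase, of cardiomyocyte and endothelial RNA, and of the RNA behind the skeletal muscle list in the calls of members were not tested. A covariate that differs between the groups also takes up part of the group difference.

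**Figure D5:**
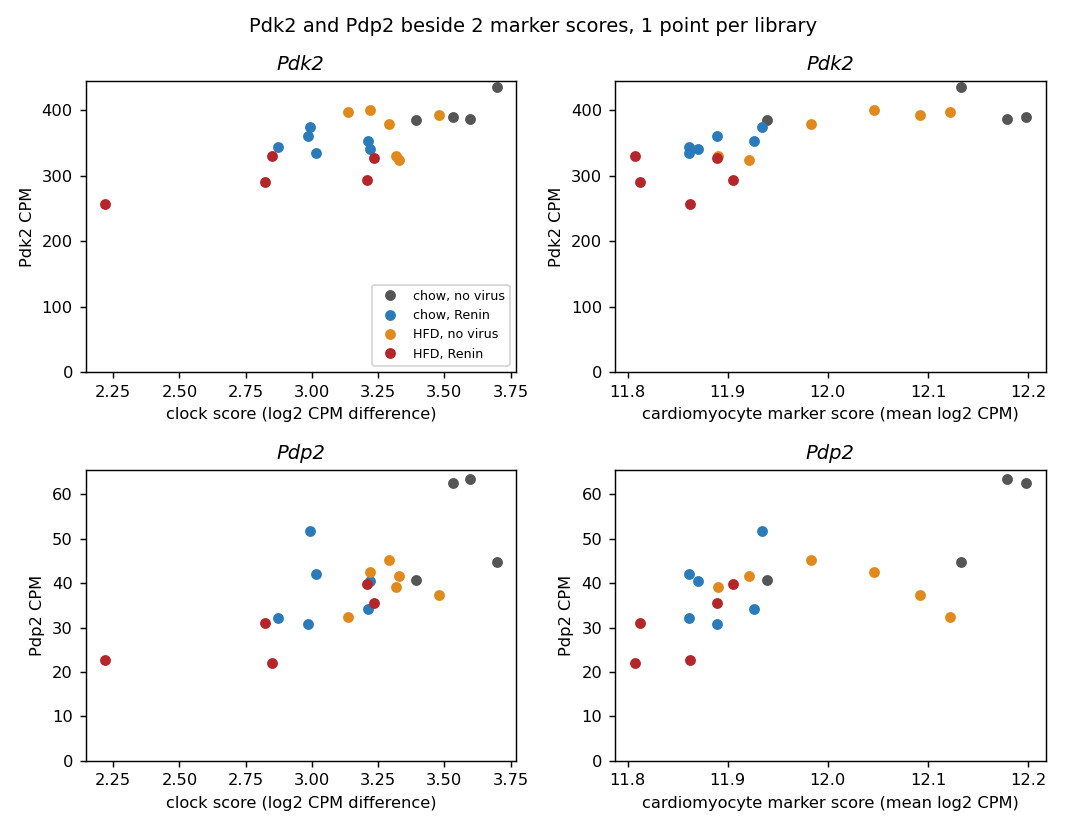
CPM of Pdk2 and Pdp2 (y axes, from 0) in each library against the clock score and the cardiomyocyte marker score (x axes, log2 CPM units), colored by group. Chow-novirus libraries have clock scores of 3.39 to 3.70 and HFD-Renin libraries 2.22 to 3.23, and the 5 HFD-Renin points for Pdk2 are at 257 to 331 CPM.

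In chow-Renin, all 7 central nervous system markers were called higher than in chow-novirus and higher than in HFD-Renin. They move with the Pdhb call in chow-Renin and with the Pdk1 and Pdk2 calls in HFD-Renin against chow-Renin. All 7 were also higher in the renin average and 6 were lower in the diet average. Their part in these calls was not tested. With their score as a covariate edgeR called 0 members in either average (Pdk2 and Pdp2 had an unadjusted p below 0.05 in the renin average and no member did in the diet average), and 203 and 59 of all tested genes. In HFD-Renin against chow-Renin 39 of 15216 genes were called with it, beside 3440 without it. Pdk1 was -0.0066 and Pdk2 -0.04 in HFD-Renin against chow-Renin (adjusted p 0.9997 for both). Pdk2 and Pdp2 in HFD-Renin against chow-novirus were -0.45 (adjusted p 0.00195) and -0.90 (adjusted p 0.00927) with that covariate. Without the 5 libraries with high atrial markers, Pdk2 was -0.48 (adjusted p 0.00496), Pdp2 -0.99 (adjusted p 0.0120) and Mpc1 -0.29 (adjusted p 0.0650) in HFD-Renin against chow-novirus. After all libraries were thinned to the smallest depth, the same 3 differences were -0.42 (Pdk2), -0.82 (Pdp2) and -0.26 (Mpc1), and each passed, as did Pdp1, while Pdhb in chow-Renin (adjusted p 0.0661) and Mpc1 in the renin average (adjusted p 0.0592) no longer did.

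The authors' deposited table gives a comparison headed HFD+virus, whose reference group it does not state. For Pdk2 the authors' deposited table lists a log2 value of -0.37 (adjusted p 6.13e-05), for Pdp2 -0.64 (adjusted p 0.000746) and for Mpc1 -0.20 (adjusted p 0.0254). The other 7 members had adjusted p-values of 0.0713 (Pdk1, 0.22) to 0.755 (Pdk3) in the authors' deposited table, with Pdk4 at 0.22 (adjusted p 0.122).

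Partners of the gate were read from 8 other genes of the complex, its phosphatase regulator and its cofactor supply. In chow-Renin against chow-novirus 1 of the 8 was called, which was lower, where 13.5% of all tested genes were called, and the median log2 fold change was -0.19, beside -0.03 over all tested genes. Dlat, the E2 core of the complex, fell by 0.25 in chow-Renin (SE 0.08, adjusted p 0.0424), from 404 to 481 CPM in chow-novirus to 366 to 409 CPM. The Dlat call was lost in 8 of 10 fits without 1 library, those without chow-novirus replicates 1, 2 or 4 or chow-Renin replicates 1, 3, 4, 5 or 6. Pdhx, which binds E3 to that core, measured 91.6 to 153 CPM in HFD-Renin and 76.6 to 109 CPM in HFD-novirus, and was higher in HFD-Renin by 0.34 (SE 0.11, adjusted p 0.0462). Dld (E3) and Pdpr, the regulatory subunit of the phosphatase, were not called in any comparison.

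Of 15 genes that supply pyruvate or take it elsewhere, 4 were called lower and 1 higher in HFD-Renin against chow-novirus, where 8.29% of all tested genes were called, with a median log2 fold change of -0.13 beside 0.01 over all tested genes. Slc2a4, the insulin-responsive glucose transporter, fell by 0.62 (SE 0.08, adjusted p 0.000194), from 315 to 390 CPM in chow-novirus to 207.4 to 260 CPM in HFD-Renin. Gpt, an alanine aminotransferase, fell by 0.85 (SE 0.13, adjusted p 0.000478), and Pcx, pyruvate carboxylase, fell by 0.71 (SE 0.11, adjusted p 0.000570). For both, the HFD-Renin hearts were below the chow-novirus hearts, at 14.9 to 22.3 against 27.1 to 35.1 CPM for Gpt and 23.0 to 30.3 against 40.9 to 44.7 CPM for Pcx. Slc2a1, the basal glucose transporter, rose by 0.44 in chow-Renin against chow-novirus (SE 0.10, adjusted p 0.00359) and was lower in HFD-Renin than in chow-Renin by a log2 fold change of -0.69 (SE 0.09, adjusted p 5.96e-06). All 7 central nervous markers moved the same way in both comparisons, and their part in the Slc2a1 calls was not tested. With their score as a covariate 38 and 39 of 15216 genes were called, beside 2048 and 3440 without it. With the clock or the cardiomyocyte covariate edgeR called 0 of the 15 in HFD-Renin against chow-novirus (8 and 5 at an unadjusted p below 0.05).

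Of 14 regulators known to act on Pdk4, 3 were called lower and 1 higher in the renin average, where 20.6% of all tested genes were called, with a median of -0.08 beside -0.00 over all tested genes. Esrra, the oestrogen-related receptor that drives oxidative genes, was lower by a log2 value of -0.26 (SE 0.05, adjusted p 0.00117), Rxra, the partner of PPARs, by -0.20 (SE 0.06, adjusted p 0.0135) and Ppargc1a, their coactivator, by -0.32 (SE 0.10, adjusted p 0.0223) in the renin average. With the clock or the cardiomyocyte covariate edgeR called 0 of the 14, with 2 at an unadjusted p below 0.05 in each, with the central nervous covariate it called 1 higher and none lower, and without chow-novirus replicate 1 or 2 it called 2. Ppara itself was not called in any comparison. Nr3c1, the glucocorticoid receptor, was higher in HFD-Renin than in chow-Renin by 0.22 (SE 0.08, adjusted p 0.0351).

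Pdk4 itself is a PPAR target, and 20 other PPAR targets of fatty acid use gave its background. In the diet average 7 of the 20 were called, all higher, where 12.3% of all tested genes were called, with a median of 0.22 beside 0.01 over all tested genes. Fabp3, the heart fatty acid binding protein, was higher by 0.40 (SE 0.06, adjusted p 8.90e-05), Slc25a20, the carnitine carrier, by 0.34 (SE 0.07, adjusted p 0.00199), Cd36, the fatty acid transporter, by 0.22 (SE 0.05, adjusted p 0.00702) and Plin5, a lipid droplet coat, by 0.25 (SE 0.08, adjusted p 0.0322). With the central nervous covariate edgeR called 0 of the 20 in the diet average, with 5 at an unadjusted p below 0.05, and 1 was called without the atrial-rich libraries. In HFD-novirus against chow-novirus edgeR called 0 of the 20, although 14 had an unadjusted p below 0.05, and DESeq2 called 5, all higher. Without chow-Renin replicate 6 the diet average called 11 of the 20. Pdk4 was not called in the diet average. In the renin average 3 of the 20 were called, all lower, where 20.6% of all tested genes were called, among them Plin5 (-0.30, SE 0.08, adjusted p 0.00719).

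Pdk1 is listed among targets of hypoxia-inducible factors, and 10 others were read beside it. In HFD-Renin against chow-Renin, where Pdk1 rose, 4 of these 10 were called, all higher, where 22.6% of all tested genes were called, with a median of 0.21 beside 0.02 over all tested genes. P4ha1, a collagen prolyl hydroxylase, was higher by 0.96 (SE 0.13, adjusted p 1.40e-05), Egln3 by 0.87 (SE 0.24, adjusted p 0.0151) and Egln1 by 0.22 (SE 0.07, adjusted p 0.0187), both oxygen-sensing hydroxylases. With the central nervous covariate edgeR called 0 of the 10 there, and 0 had an unadjusted p below 0.05. Without the atrial-rich libraries 1 of the 10 was called, and 2 without chow-Renin replicates 1, 3 or 5. Bnip3, a mitophagy receptor, was called higher in HFD-Renin against chow-novirus (0.57, SE 0.11, adjusted p 0.00260). Of 10 glucocorticoid targets, 1 was called higher and 2 lower in HFD-Renin against chow-novirus (8.29% of all tested genes): Cdkn1a was higher by 1.13 (SE 0.30, adjusted p 0.0262), and Klf9 (-0.32, SE 0.08, adjusted p 0.0181) and the clock gene Per1 (-0.74, SE 0.20, adjusted p 0.0262) were lower. Without chow-novirus replicate 1 or 2 edgeR called 0 of these 10 (3 and 4 had an unadjusted p below 0.05), and 1 without chow-novirus replicate 4 or HFD-Renin replicate 1 or 5. A replicate block left 0 higher and 1 lower. With the clock or cardiomyocyte covariate edgeR called 0 of them (0 and 1 at an unadjusted p below 0.05). Sgk1 was lower in HFD-Renin than in chow-Renin (-0.39, SE 0.13, adjusted p 0.0307).

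The genes whose log2 CPM over the 21 libraries was most like that of a member are given with Pearson's r as a description. The libraries share depth, scaling and tissue makeup. For Pdk2 the 5 nearest genes were Echs1 (0.917), Aldh4a1 (0.914), Coq8a (0.913), Ivd (0.909) and Pygm (0.903), most of them mitochondrial enzymes. For Pdp2 they were Ttc7 (0.860), Dnaaf3 (0.843), Slc25a22 (0.832), Kcnd2 (0.831) and Isyna1 (0.829). Pdk4 had no close neighbour, with Ift140 (0.713), Cep97 (0.690) and Tbl1xr1 (0.675) at the top.

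For Pdk1 the nearest genes were Ulk2 (0.954), Ppfia1 (0.953), Fermt2 (0.941), Caprin1 (0.937) and Myo5b (0.934). For Pdhb they were Poldip2 (0.945), Dlst (0.898), Yars2 (0.891), Dlat (0.874) and Adk (0.869), of which Dlat is a partner in the complex. For Mpc1 they were the muscle genes Myl3 (0.915), Ckm (0.894) and Eno3 (0.876), then Ogdhl (0.871) and Ppp1ca (0.860), and for Mpc2 they were Aes (0.964), Cyc1 (0.958), Chchd10 (0.954), Atp5g3 (0.947) and Ndufab1 (0.947), most of them mitochondrial. After the group means were subtracted, the nearest genes were Auh for Pdk2 (0.888), Thrb for Pdp2 (0.824), Zrsr1 for Pdk4 (0.699), Kif16b for Pdk1 (0.941), Atp6v1d for Pdhb (0.933), Myl3 for Mpc1 (0.915) and Usmg5 for Mpc2 (0.948).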

How the data were processed

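The deposited files of each library hold estimated counts and TPM per transcript, made by the authors with Salmon 1.10.2, per the submitters' processing notes, which name GRCm38 and mm10. The index and its options are not given in the sources used here. A deposited gene matrix adds a gene signal per library and the authors' log2 fold changes and adjusted p-values for 1 comparison. How the authors made that signal is not given in the sources used here. DESeq2 1.40.2 is also named in the submitters' processing notes.

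Transcripts were matched to GENCODE M21 (97.95% of 119215; 0.854% to 0.925% of reads unmatched) and summed to genes, and the sums were rounded. edgeR 4.0.16 (R 4.3.3) fitted 1 model with a term per group to all 21 libraries, with TMM scaling (factors 0.886 to 1.09), a low-count filter and the quasi-likelihood F test. P-values were adjusted over 15216 genes by Benjamini-Hochberg. CPM are TMM-scaled, and TPM were summed per gene. The fits were tested on simulated data. Nothing says beyond the titles that replicates are separate mice, so p-values measure the spread between these samples.

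Members and lists were chosen with earlier results of these data known. All 10 members are described, and from each list up to 4 called genes in order of their smallest adjusted p, plus Dlat, Dld, Pdhx, Pdpr, Ppara and Ppargc1a. The 5 genes most like a member had a mean of at least 5 CPM. Alternatives were other scalings, filters, tools (DESeq2 1.42.0, limma 3.58.1 on log2 of the deposited signal plus 1), score covariates, a replicate block and leaving out each library. The covariate of cardiomyocyte markers and the fit without atrial-rich libraries were added after seeing the data. Promoter sequences are from RefSeq (GRCm38.p6). Protein sequences were not used here. A gene of the list of partners is not reported here and was left out of its counts.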

Additional observations from a re-analysis of the deposited data

Results flagged for a closer look

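Among 52 groups of values checked, 7 held a heart whose gap to its nearest neighbour was large for the range of its group. Chance does this in about 5% of groups. Pdk2 in chow-novirus replicate 4 was 435 CPM, above the other 3 hearts. Pdhb in chow-novirus replicate 3 was 607 CPM, below the other 3. Pdha1 in chow-Renin replicate 6 was 963 CPM, above its group. Mpc1 in HFD-Renin replicate 2 was 240 CPM, above its group and still below every chow-novirus heart. Pdk4 in HFD-novirus replicate 5 made up 37.4% of the kinase TPM, below its group.

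HFD-novirus replicate 6 was low in 2 of the 7: Pdha1 at 767 CPM, and Pdhb-202 at 3.88% of Pdhb TPM. It was also the library with the lowest Nnt, narrowly so with both annotated Nnt genes summed. Without it, 6 members were called in the renin average, with Pdha1 and Pdhb (adjusted p 0.0487) added.

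No member was called in the interaction, and neither were most of the 77 genes of the 6 lists read beside them: edgeR's quasi-likelihood test called 4, or 5.19%, beside 10.4% of all tested genes. Pdhx had an interaction of 0.53 (SE 0.16, adjusted p 0.0353) and P4ha1 of 0.83 (SE 0.20, adjusted p 0.00658). Hk1, a hexokinase, had one of 0.44 (SE 0.09, adjusted p 0.00154) and Pgk1, a glycolytic kinase, of 0.31 (SE 0.10, adjusted p 0.0348). Hk1 and Pgk1 are named here after their values were seen. With the central nervous covariate, whose markers are raised in chow-Renin, the P4ha1 interaction turned below 0 and that of Pdhx was 0.21 (adjusted p 0.9999 for both), and none of the 4 was called. The Pdhx call was also lost in 12 of 21 fits without 1 library (adjusted p 0.0519 to 0.104), those without chow-novirus replicates 1, 2 or 4, chow-Renin replicates 1, 3, 5 or 6, HFD-novirus replicates 3 or 6, or HFD-Renin replicates 1, 2 or 5. On chow, mean Pdhx was 94.7 CPM with renin and 108 CPM without. On HFD it was 122 CPM with renin and 96.2 CPM without. Mean P4ha1 was 47.7 against 50.6 CPM on chow and 92.8 against 55.2 CPM on HFD, with and without renin.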

How the results depend on the processing

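The calls of Pdk2 and Pdp2 in HFD-Renin against chow-novirus kept their direction in every fit run. Members called there were 3, and 0 with the clock score or the cardiomyocyte score as a covariate, where 0 of all 15216 tested genes were called as well (1210 and 1972 at an unadjusted p under 0.05). Mpc1 was also lost there with no low-count filter, without atrial-rich libraries or with limma, and Pdp2 with only the groups compared. Pdk1 was added with a mean of at least 20 CPM, the central nervous or atrial covariate, or DESeq2. Thinned reads added Pdp1. In chow-Renin against chow-novirus (1) the count was 0 with DESeq2's size factors, upper-quartile factors, no low-count filter, a mean of at least 20 CPM, the clock, central nervous or cardiomyocyte covariate, mitochondrial genes left out, thinned reads, atrial-rich libraries left out or limma, and 4 with only the groups compared. In HFD-Renin against HFD-novirus (2) it was 1 with no filter or limma and 0 with the clock or cardiomyocyte covariate or only the groups compared. In HFD-Renin against chow-Renin (2) it was 0 with the clock or central nervous covariate (2697 and 39 of all tested genes) and 1 without atrial-rich libraries or with limma. In the diet average (2) it was 0 with the clock or central nervous covariate and 1 with no filter, without atrial-rich libraries, with limma or with the cardiomyocyte covariate, where the 1 was Pdk3 and Pdk2 and Pdp2 were lost. In the renin average (4) it was 0 with the clock, central nervous or cardiomyocyte covariate. Mpc1 alone was lost there with DESeq2's size factors, upper-quartile factors, no low-count filter, a mean of at least 20 CPM or the atrial covariate. The same held with mitochondrial genes left out, thinned reads, atrial-rich libraries left out or limma. Leaving out 1 library gave 0 to 4 members in chow-Renin against chow-novirus, 1 to 4 in HFD-Renin against HFD-novirus, 0 to 3 in HFD-Renin against chow-Renin, 0 to 3 in the diet average and 3 to 6 in the renin average. In HFD-Renin against chow-novirus, Pdk2 and Pdp2 stood in all 9 such fits and Mpc1 was lost in 7. Pdk1 was added there without HFD-Renin replicate 4. The cause was not tested.

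Over 28 pairs of same-numbered hearts, r of the deviations ran from -0.226 to 0.421 and was over 0.1 in 11, so the numbers were not taken to pair the hearts. The hearts numbered 3 did deviate together, with r of 0.220 to 0.421 in all 6 of their pairs, and all 4 were atrial-rich (atrial score 4.80 to 6.07). With a replicate block the counts were 2 in chow-Renin against chow-novirus, 1 in HFD-Renin against HFD-novirus and 1 in the diet average. In the renin average Pdhb was added and no call was lost.

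Differences of members under 0.2 (log2) that were not called also turned, in 118 of 2310 refits of single differences, and are not listed. Of the others and of the named list genes, with the central nervous covariate the direction turned for Pdk3 in chow-Renin against chow-novirus (-0.78), HFD-Renin against chow-Renin (0.41), the interaction (1.04) and the renin average (-0.26), for Pdk4 in chow-Renin against chow-novirus (-0.34), the interaction (0.52) and the renin average (-0.084), for Pdk1 in HFD-Renin against chow-Renin (-0.0066) and the interaction (-0.13), for Pdp2 (0.10), Slc2a4 (0.11), Nr3c1 (-0.13), Per1 (0.10) and Klf9 (0.20) in HFD-Renin against chow-Renin, and for P4ha1 in the interaction (-0.039). With the cardiomyocyte covariate it turned for Pdk3 in chow-Renin against chow-novirus (-0.25) and the renin average (-0.26), and in the renin average for Pdk4 (-0.050) and Mpc1 (0.022). Without atrial-rich libraries it turned for Pdk3 in HFD-Renin against chow-novirus (0.013) and the interaction (0.067). Central nervous scores of chow-Renin do not overlap the other groups.

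Shares from estimated counts, which do not correct for length, were 49.4%, 60.8%, 57.8% and 61.4% for Pdk4 of the kinases, 57.9%, 51.5%, 52.1% and 47.8% for Pdp2 of the phosphatases, and 5.11%, 6.54%, 4.28% and 5.92% for Pdhb-202 of Pdhb, in chow-novirus, chow-Renin, HFD-novirus and HFD-Renin. Thinning to the smallest depth changed the calls of Pdp1, Pdhb and Mpc1 and none of Pdk3, the member with the lowest counts.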
